A study of Mus musculus with 24 samples.

Results

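The genes described here are 9 that an osteoclast uses to fuse with its neighbours, to resorb bone or to sense its surroundings: Dcstamp, Ocstamp, Acp5, Ctsk, Mmp9, Car2, Calcr, Oscar and Mst1r. They are taken by name for their known roles, but the choice was made with earlier results of these data known. All 9 were among the 54232 gene identifiers in the count tables. RNA was sequenced from cultures of bone marrow stroma grown for 7 days in MEM-alpha with serum and sorted by flow cytometry on the surface proteins CD45 and Sca1. The mice were female C57BL/6, 6 to 8 weeks old, and were wild type or Sh3bp2KI/KI, which carry a knock-in on both copies of the adaptor gene Sh3bp2. Cells with both surface proteins are called hematopoietic and cells with Sca1 alone mesenchymal, as in the labels, with 6 libraries for each genotype in each population and 24 in all. The labels do not say which change was knocked in, nor whether replicates came from separate mice, so the tests measure the spread between these libraries, which may be partly technical.

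Osteoclasts are the bone-resorbing cells of the macrophage lineage. Precursors exposed to the cytokines M-CSF and RANKL turn on the transcription factor NFATc1, fuse into cells with many nuclei, seal off a patch of bone and acidify it across a folded membrane, the ruffled border, while secreting enzymes that digest the exposed collagen. SH3BP2 is an adaptor that links receptors of immune cells to the kinases SYK and SRC, and mutations of its human gene cause cherubism, a jaw disease with many osteoclast-like cells.

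Library totals ranged from 9875390 to 15826711 counts. Levels are given in CPM, which are counts relative to the library's total after scaling by edgeR's TMM factors. Sh3bp2 itself was at 211.6 ± 25.6 CPM in wild type and 232 ± 36.5 in knock-in hematopoietic libraries (SD, n = 6 each) and at 7.41 and 7.58 CPM in the mesenchymal ones, so its level does not separate the genotypes. Ptprc, which encodes CD45, was at 792 and 748 CPM in the hematopoietic groups and at 2.98 and 3.13 in the mesenchymal groups, wild type first. The Sca1 gene Ly6a was low everywhere, with group means from 9.98 to 12.1 CPM. The hematopoietic libraries carried 17890 CPM (wild type) and 20550 CPM (knock-in) summed over 14 macrophage genes, with Itgam listed at 0 in all 24 libraries, and also 5594 and 5815 CPM over 18 stromal genes. The stromal sum ranged from 1857 to 12600 CPM among them and was highest in replicate 3 of each genotype.

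In hematopoietic cells all 9 genes had a higher mean in the knock-in, by 5.03 to 17.2-fold. The difference passed an adjusted p of 0.05 for 8 of the 9, all of them higher, where 9.01% of the 14030 genes tested rose (edgeR quasi-likelihood test, Benjamini-Hochberg over all genes). For 7 of the 9 every knock-in library was above every wild type library, which held for 4.62% of genes tested. The median log2 fold change of the 9 was 2.79, and that of all genes tested was -0.0048. All 9 passed the filter on low counts, 5 of them on the wild type libraries alone. Of those 5, Acp5, Mmp9, Ocstamp and Dcstamp were called and Ctsk was not. Calcr, Car2, Oscar and Mst1r passed the filter only through the knock-in group, so their direction was in part fixed by the filter. The counts above include these genes, and nothing is read from their part in them. In these bulk libraries, more cells that express a gene and more RNA of it per cell cannot be told apart.

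**Figure D1:**
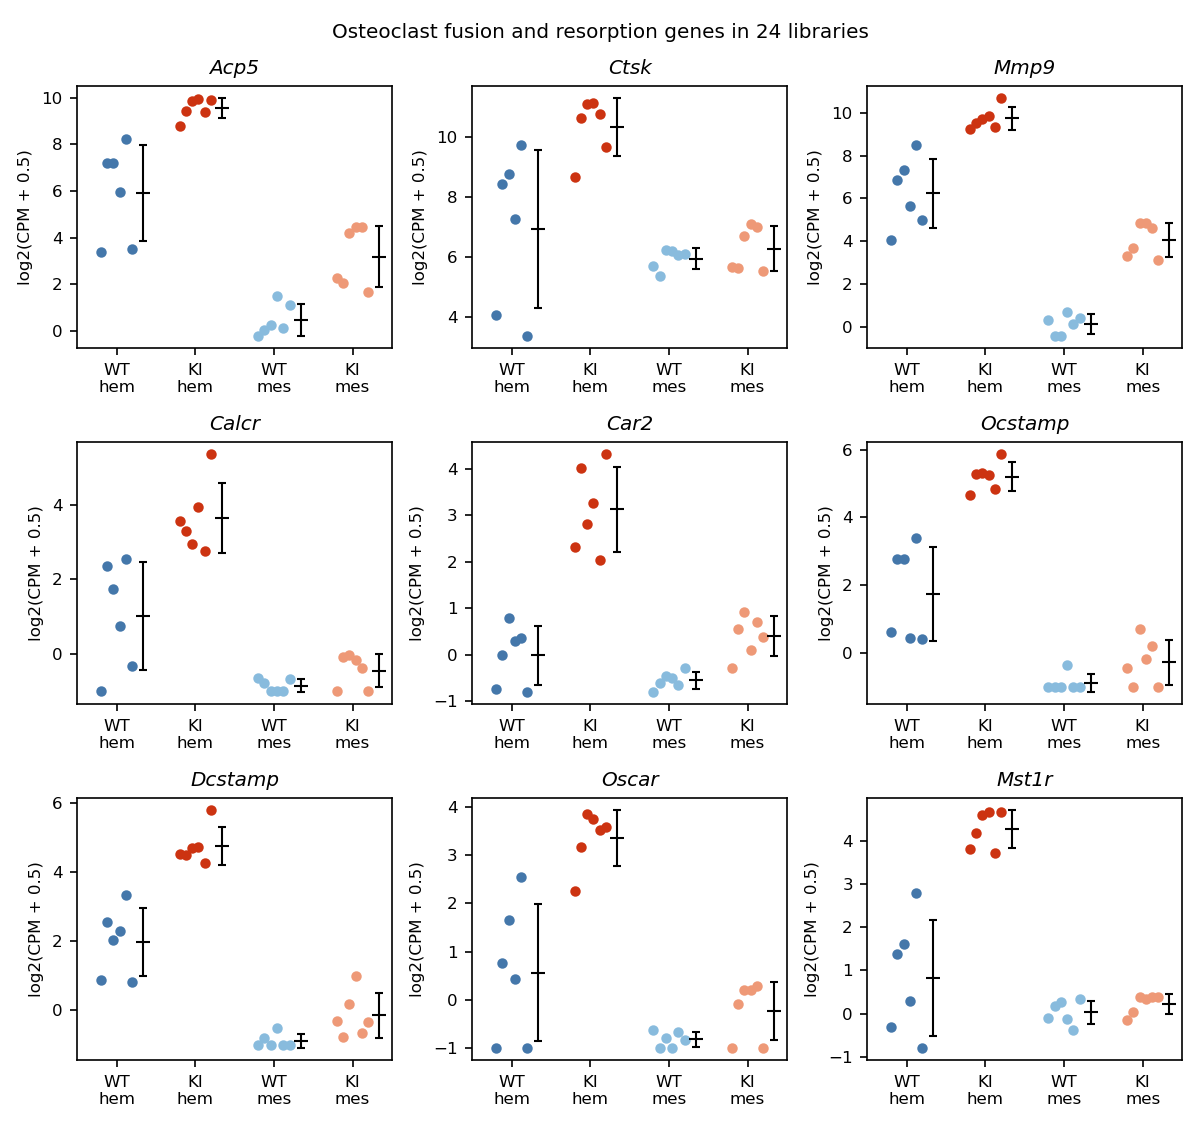
Level of each of the 9 genes in the 24 libraries, as log2(CPM + 0.5) on the vertical axis, for wild type (WT) and knock-in (KI) hematopoietic (hem) and mesenchymal (mes) libraries. Points are libraries in order of replicate and the bars give mean and SD (n = 6). For 7 genes every knock-in hematopoietic library lies above every wild type one, while Ctsk and Oscar overlap.

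Dcstamp and Ocstamp encode the multi-pass membrane proteins DC-STAMP and OC-STAMP, without which osteoclast precursors stay mononuclear. Dcstamp (ENSMUSG00000022303, chr15:39745930-39760938 on GRCm38, as for the genes below, plus strand) ranged from 1.27 to 9.52 CPM in wild type hematopoietic libraries, with a median of 4.01, and from 18.6 to 55.1 CPM in knock-in ones, with a median of 23.9. The lowest knock-in library was thus above the highest wild type one. The difference was 2.73 ± 0.43 on the log2 scale (SE; adjusted p = 0.0014, edgeR). Ocstamp (ENSMUSG00000027670, chr2:165393760-165400405, minus strand) ranged from 0.82 to 10.1 CPM in wild type, with a median of 3.67, and from 24.7 to 58.1 CPM in the knock-in, with a median of 37.7. Here too the groups did not overlap, and the log2 fold change was 3.15 ± 0.57 (adjusted p = 0.00315). Both genes stood highest in knock-in replicate 6 and lowest in wild type replicate 6. The low end was close, with Dcstamp at 1.34 CPM in wild type replicate 1 and Ocstamp at 0.86 CPM in wild type replicate 4. Each of those values is 13 counts, so which library was lowest is not settled.

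Acp5, Ctsk and Mmp9 encode secreted enzymes of resorption: tartrate-resistant acid phosphatase (TRAP), the stain by which osteoclasts are recognised, cathepsin K, the main protease of bone collagen, and the gelatinase MMP-9. Acp5 (ENSMUSG00000001348, chr9:22126727-22135711, minus strand) ranged from 10.1 to 301 CPM in wild type hematopoietic libraries (median 104) and from 445 to 970 in knock-in ones (median 806), without overlap. It rose by 2.79 ± 0.72 (log2, SE; adjusted p = 0.0209, edgeR). Mmp9 (ENSMUSG00000017737, chr2:164940780-164955850, plus strand) ranged from 16.2 to 366 CPM (median 81.8) and from 611 to 1666 CPM (median 793), also without overlap, a log2 fold change of 2.90 ± 0.65 (adjusted p = 0.01). Acp5 shares 137 exon bases with a gene on the opposite strand, 6530413G14Rik, whose 1223 counts over all libraries compare with 71580 for Acp5, and whether the counting used strand is not given in the sources used here.

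Ctsk (ENSMUSG00000028111, chr3:95499256-95509362, plus strand) was the most abundant of the 9 and the 1 that did not pass. Its wild type libraries spanned 9.84 to 856 CPM (median 252) and its knock-in libraries 408 to 2282 CPM (median 1677). Wild type replicates 3 and 5, at 439 and 856 CPM, lay above knock-in replicate 1, and replicate 5 also above knock-in replicate 6 (818 CPM). Its log2 fold change of 2.33 ± 0.90 had an adjusted p of 0.108 (edgeR). Leaving out wild type replicate 5 alone gave 3.23 with an adjusted p of 0.0485, and DESeq2 on all 12 libraries gave an adjusted p of 0.0462. No other fit that left out 1 library passed, with adjusted p up to 0.191 (edgeR). With no filter on low counts the adjusted p was 0.291 (edgeR). Unlike the other 8 genes, Ctsk was also plentiful in mesenchymal cells, at 62.7 ± 13.7 CPM in wild type (n = 6), and 2 wild type hematopoietic libraries, replicates 1 and 6, held less of it (16.2 and 9.84 CPM) than any mesenchymal library did. The stromal markers summed to 3761 and 2089 CPM in those 2 libraries, and their part in the level of Ctsk was not tested.

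Car2 encodes carbonic anhydrase II, which supplies the protons that the osteoclast pumps onto bone. It gave the largest fold change of the 9. In wild type hematopoietic libraries Car2 (ENSMUSG00000027562, chr3:14886273-14900770, plus strand) was near the limit of detection, from 1 to 13 counts or 0.075 to 1.23 CPM, with a median of 0.61 CPM. Knock-in libraries held 49 to 252 counts, or 3.63 to 19.4 CPM, with a median of 7.80 CPM, so the groups were well apart. The log2 fold change was 4.11 ± 0.60 (SE; adjusted p = 0.000766, edgeR), the 5th largest rise among the 14030 genes tested. Car2 passed the filter only through the knock-in group, so nothing is read from this rank.

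Calcr, Oscar and Mst1r encode cell surface receptors. The calcitonin receptor, from Calcr, receives the hormone that halts resorption and marks mature osteoclasts. Calcr (ENSMUSG00000023964, chr6:3685680-3764714, minus strand) ranged from 0 to 5.33 CPM in wild type hematopoietic libraries (median 2.01) and from 6.22 to 40.5 in knock-in ones (median 10.2). The groups did not overlap, and 1 wild type library had no count. The log2 fold change was 2.53 ± 0.73 (SE; adjusted p = 0.0362, edgeR), and knock-in replicate 6 was 2.73 times as high as the next library. This call was the least stable of the 8: it was lost in 7 of 12 fits that left out 1 library (wild type replicates 3, 4 and 6, knock-in replicates 1, 2, 4 and 6), with adjusted p up to 0.0837.

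OSCAR is a receptor for collagen that pairs with the adaptor FcRγ and co-stimulates osteoclast differentiation. Oscar (ENSMUSG00000054594, chr7:3609813-3616157, minus strand) was at 0 counts in wild type replicates 1 and 6 and reached 5.33 CPM in replicate 5 (median 1.03). Its knock-in libraries ranged from 4.31 to 13.96 CPM (median 11.3), so the highest wild type library lay above the lowest knock-in one. The log2 fold change was 2.64 ± 0.72 (adjusted p = 0.0268, edgeR). The call was lost when wild type replicate 2 or 4 or knock-in replicate 2, 3 or 4 was left out, with adjusted p up to 0.0604.

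Mst1r encodes RON, the receptor tyrosine kinase for macrophage-stimulating protein. Mst1r (ENSMUSG00000032584, chr9:107906873-107920383, plus strand) ranged from 0.075 to 6.40 CPM in wild type hematopoietic libraries (median 1.42) and from 12.6 to 25.1 in knock-in ones (median 20.8). No library of the groups overlapped. The knock-in effect was 3.27 ± 0.63 (log2, SE; adjusted p = 0.00417, edgeR). Mst1r passed the filter only through the knock-in group, so its direction was in part fixed by the filter and no rank is read from it.

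**Figure D2:**
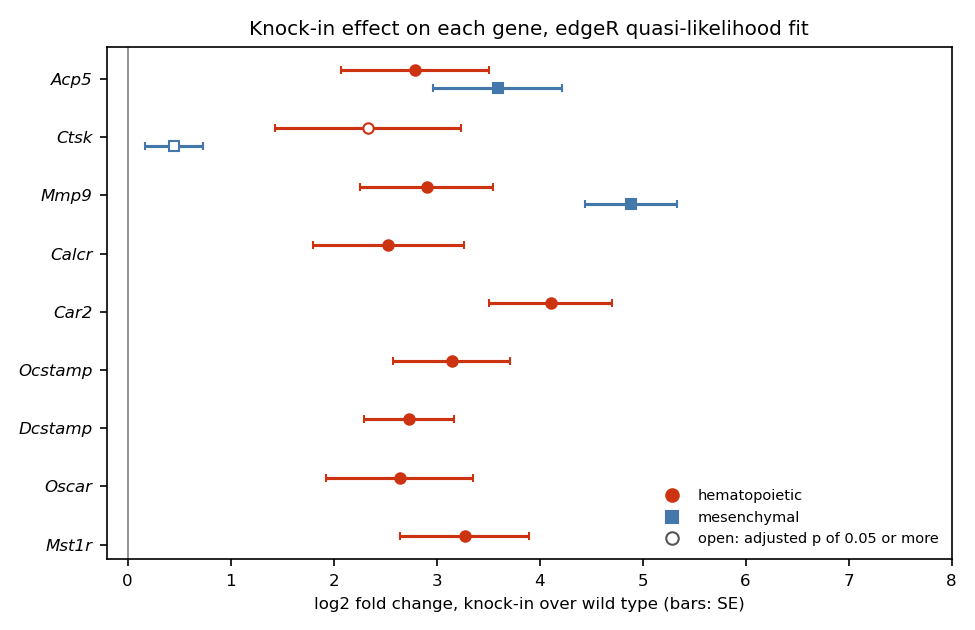
Log2 fold change of knock-in over wild type on the horizontal axis for each gene, with bars of 1 SE, in hematopoietic (circles) and mesenchymal (squares) libraries, filled where the adjusted p was under 0.05. In hematopoietic cells the estimates lie between 2.33 (Ctsk, open) and 4.11 (Car2), and in mesenchymal cells the 3 genes tested lie at 0.45 (Ctsk, open), 3.60 (Acp5) and 4.88 (Mmp9).

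The calls rested on all the libraries together. File names divide the libraries into 2 sets by a prefix, with 3 of each group in each set, and no label says what it marks. Within the first set the 9 hematopoietic log2 fold changes ran from 1.88 to 3.90 and those of Car2, Ocstamp, Dcstamp and Mst1r passed. Within the second set they ran from 2.25 to 4.31 and none of the 9 passed, with adjusted p from 0.0595 to 0.463 (edgeR). Without replicate 3 of both genotypes, the hematopoietic libraries highest in stromal markers, 5 of the 9 passed: Mmp9, Car2, Ocstamp, Dcstamp and Mst1r. The direction was the same for all 9 genes in each of these 3 fits.

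Most of the 9 genes were high or low in the same libraries. On the scale of log2(CPM + 0.5), centred on each gene's own mean, the average of the 9 was -3.29 and -3.27 in wild type replicates 1 and 6 and 0.21 in wild type replicate 5. In the knock-in it ran from 0.92 in replicate 1 to 2.26 in replicate 6. Wild type replicate 5 held the highest wild type level of 8 of the 9 genes (Car2 was highest in replicate 3), while the lowest levels fell in replicate 1 for 4 genes and replicate 6 for 5. In the knock-in the highest level was in replicate 6 for 5 genes, replicate 4 for 3 and replicate 3 for 1. Ctsk was an exception, at 818 CPM in knock-in replicate 6, its second lowest knock-in level. For each of the 7 genes with no library at 0 in wild type, the highest wild type library exceeded the lowest by a larger factor than in the knock-in. Acp5, for example, differed 29.9-fold between the lowest and highest wild type library and 2.18-fold between the knock-in ones.

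**Figure D3:**
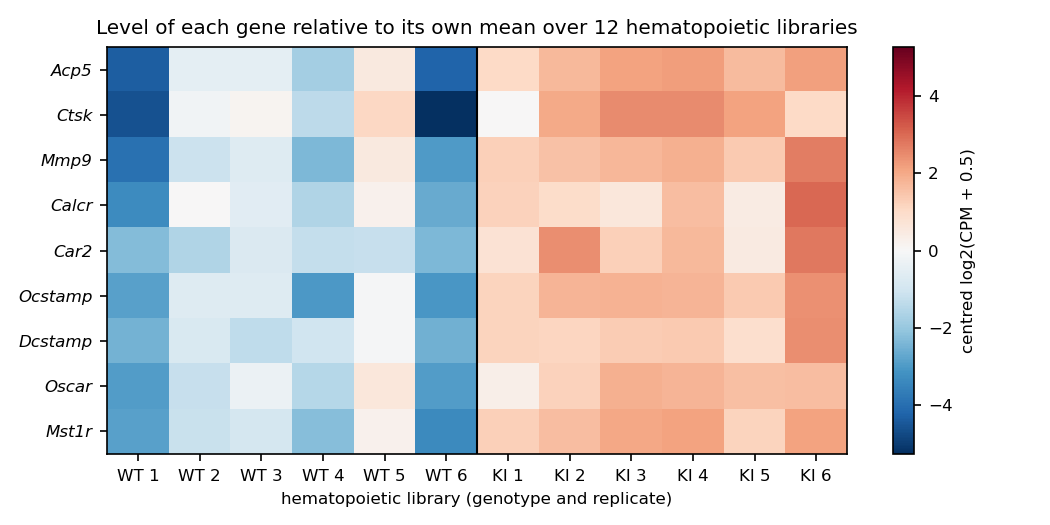
Level of each gene (rows) in each hematopoietic library (columns, wild type WT and knock-in KI by replicate), as log2(CPM + 0.5) minus the gene's own mean over the 12 libraries, with blue lower and red higher. Wild type replicates 1 and 6 are among the lowest in every row, wild type replicate 5 is near or above 0 for most genes, and the knock-in libraries are red apart from Ctsk in replicate 1.

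Closeness to that shared pattern differed between the genes. The root mean square distance of a gene's centred profile from the mean of the 9, over 12 libraries, was smallest for Mst1r (0.28) and Mmp9 (0.34) and largest for Car2 (0.74) and Ctsk (0.99). Among 12051 other protein-coding genes averaging 1 CPM or more, the nearest was Scin, which encodes the actin-severing protein scinderin (also called adseverin), with a distance of 0.15 and a mean that went from 2.52 to 22.7 CPM. Nyap2 (0.34), Rufy4 (0.37), Slc9b2 (0.37), Fam102a (0.39) and Cd109 (0.41) came next. Of these, Slc9b2 encodes a sodium-proton exchanger of osteoclasts and went from 45.9 to 292 CPM. Likeness was measured on the same libraries in which the 9 genes differ by genotype, so a gene that rises with genotype scores high by that alone.

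Levels are compared between genes per kilobase of exon. In knock-in hematopoietic libraries Ctsk led at 1002 ± 501 CPM per kb (SD, n = 6), followed by Acp5 at 382 ± 103 and Mmp9 at 257 ± 110, and each of these was above the next in all 6 libraries. The other 6 genes were far lower per kb. Dcstamp (10.6 ± 5.04 CPM per kb) and Ocstamp (10.3 ± 3.19) could not be told apart, with Dcstamp higher in 2 of 6 libraries. Oscar stood at 5.61, Car2 at 4.05, Mst1r at 3.92 and Calcr at 3.80 CPM per kb, and each exceeded its next neighbour in only 2 to 4 libraries. In wild type the top 5 came in the same order, from Ctsk at 201 ± 213 CPM per kb to Ocstamp at 1.16 ± 1.07, and Car2 was last at 0.23 ± 0.18.

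Since these genes rose together, their promoters were searched for letters that osteoclast transcription factors are known to bind. RefSeq windows on GRCm38.p6, from 250 bases before to 50 after a start, were at hand for 5 of the 9 genes, as 9 windows: 3 for Acp5, 1 for Ctsk, 2 for Calcr, 1 for Oscar and 2 for Mst1r. Mmp9, Car2, Ocstamp and Dcstamp had none in the table. The motifs were the NFAT core TGGAAA, the PU.1 core GAGGAA, the MITF site TCATGTG, the AP-1 site TGANTCA, the TATA box TATAAA and the E-box CACGTG, on both strands, and no 2 matches overlapped. The NFAT core lay in 4 of the 9 windows, against 21.4% of all 32851 windows of that length, the PU.1 core in 2 (28.3% of all windows) and the MITF site in 1 (3.77%). The AP-1 site (7.81% of all windows), the TATA box (13.6%) and the E-box (7.15%) were in none of the 9. A match is only a run of letters and was not tested as a binding site. The 4 windows with a match are printed below 5′ to 3′ on the strand of the gene, with each match in capitals, to show where these letters lie.
Ctsk: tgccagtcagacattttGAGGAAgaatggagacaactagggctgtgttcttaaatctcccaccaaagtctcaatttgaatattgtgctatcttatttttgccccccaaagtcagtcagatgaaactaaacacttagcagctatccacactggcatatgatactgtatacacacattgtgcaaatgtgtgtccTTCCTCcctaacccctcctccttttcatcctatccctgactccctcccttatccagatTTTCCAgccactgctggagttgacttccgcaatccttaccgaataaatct
Oscar: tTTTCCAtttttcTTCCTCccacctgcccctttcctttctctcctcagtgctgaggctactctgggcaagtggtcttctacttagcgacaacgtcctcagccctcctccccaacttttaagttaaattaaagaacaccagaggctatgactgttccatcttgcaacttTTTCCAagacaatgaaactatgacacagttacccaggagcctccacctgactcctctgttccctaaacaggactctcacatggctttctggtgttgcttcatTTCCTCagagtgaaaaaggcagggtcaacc
Acp5: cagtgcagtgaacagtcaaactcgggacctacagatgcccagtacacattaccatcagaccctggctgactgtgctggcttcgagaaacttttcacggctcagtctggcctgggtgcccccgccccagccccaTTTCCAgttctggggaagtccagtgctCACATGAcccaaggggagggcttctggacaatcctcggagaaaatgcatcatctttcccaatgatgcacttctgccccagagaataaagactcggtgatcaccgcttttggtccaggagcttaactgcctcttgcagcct
Mst1r: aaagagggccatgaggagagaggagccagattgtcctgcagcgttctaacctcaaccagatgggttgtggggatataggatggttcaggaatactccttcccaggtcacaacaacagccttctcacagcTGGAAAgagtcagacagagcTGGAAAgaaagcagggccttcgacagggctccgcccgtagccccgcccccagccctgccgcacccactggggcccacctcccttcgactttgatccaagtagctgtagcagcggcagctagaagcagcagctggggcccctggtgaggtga
The Ctsk window (chr3:95498960-95499259, plus strand) has PU.1 cores from position -233 and from -58, counted from the start site as 1, and an NFAT core that begins on the start site itself. That of Oscar (chr7:3616108-3616407, minus strand) has NFAT cores from -249 and -82 and PU.1 cores from -237 and 21. The Acp5 window shown (chr9:22130549-22130848, minus strand) belongs to the third of 3 listed starts and has an NFAT core from -117 and the MITF site from -90. In the first Mst1r window (chr9:107906639-107906938, plus strand) NFAT cores begin at -121 and -101, 20 bases apart.

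The wider machinery of the osteoclast was followed with 6 lists of other genes. Their counts are to be read against the 9.01% of all genes tested that rose and the 6.89% that fell in hematopoietic cells. Of 15 genes of acid secretion and the ruffled border 12 rose and 1 fell, with a median log2 fold change of 0.68. Rab38, a GTPase of lysosome-related organelles, rose by 3.16 ± 0.33 (log2, SE; adjusted p = 9.28e-05, edgeR), from a mean of 2.87 to 26.2 CPM. The proton pump subunit Atp6v1b2 (log2 fold change 1.08), the chloride exchanger Clcn7 (0.79) and the sugar phosphate transporter Slc37a2 (1.14) rose less. Rab27a, of vesicle transport, fell by 0.54. The sodium-proton exchanger gene Slc9b2, met above among the nearest profiles, was the other gene of this list to rise by more than 2 on the log2 scale (2.69).

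Of 14 osteoclast transcription factors tested, 8 rose and none fell (median 0.79). Jdp2, an AP-1 family factor, rose by 2.42 ± 0.25 (adjusted p = 0.000102, edgeR), from 53.7 to 286 CPM. Prdm1, which encodes the repressor BLIMP1, rose by 1.79, Fos by 0.91 and Nfkb2 by 0.78. Nfatc1, named here after its values were seen, rose by 1.30 ± 0.21 (adjusted p = 0.00133), from 251 to 612 CPM. Among genes known to hold osteoclast formation back, 2 of 6 tested rose, Irf2bp2 by 0.30, and the list's median was 0.06. Irf8 and Lilrb4a of that list were listed at 0 in all 24 libraries.

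Other genes of fusion and cell contact divided: 6 of 15 rose and none fell, with a median of 0.30. Of those 6, Tspan7 passed the filter only through the knock-in group, with 4 of 6 wild type libraries at its level. Its direction was thus in part fixed by the filter, and nothing is read from its part in the count. Atp6v0d2, a proton pump subunit needed for fusion, rose by 2.42 ± 0.39 (adjusted p = 0.00145, edgeR), Cd200 by 1.995, Snx10 by 1.11 and Cd44 by 0.66. Matrix degradation had 2 of 10 up, 1 down and a median of 0.15, and its counts were near the shares over all genes. Mmp14, a membrane-bound collagenase, rose by 1.42, Ctsl by 1.04, and Ctsb fell by 0.40. Of 19 receptors and adaptors 5 rose and 3 fell (median 0.06). Src, the kinase needed for the ruffled border, rose by 2.81 ± 0.30 (adjusted p = 0.000123), and the integrin chains Itgb3 and Itgav by 2.60 and 0.73. Vav3 fell by 0.83, and so did Fcer1g, which encodes the partner of OSCAR (by 0.65), and Trem2 (by 0.38), the last 2 named after their values were seen.

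**Figure D4:**
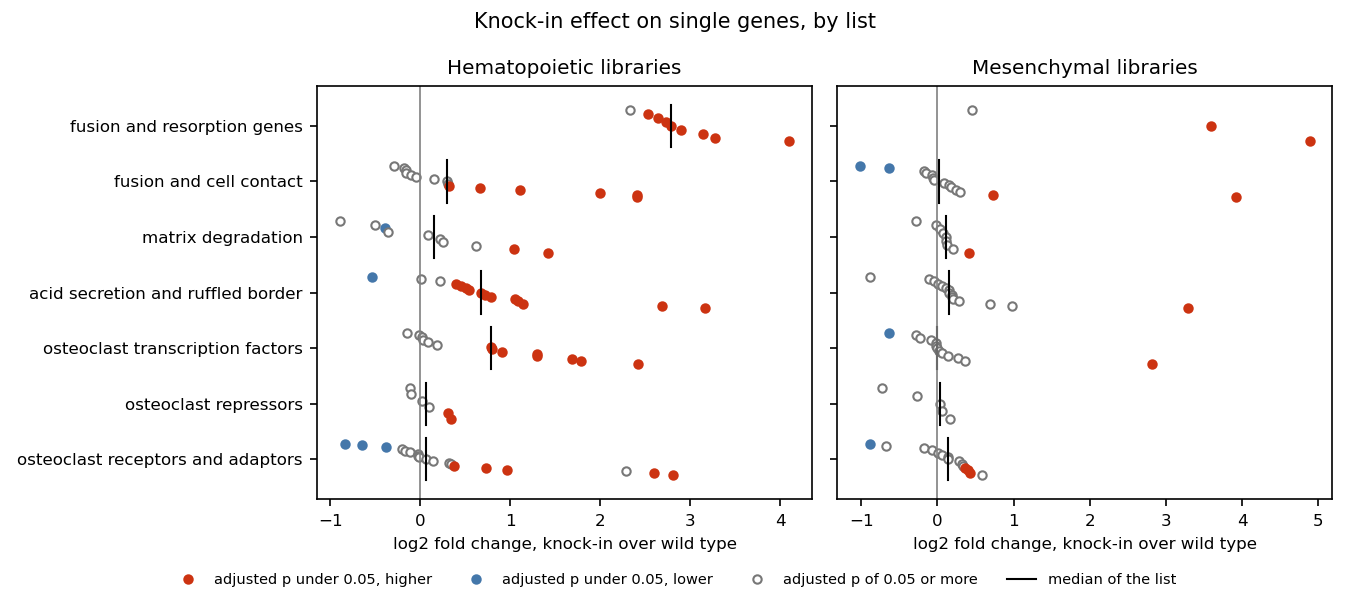
Log2 fold change of knock-in over wild type (horizontal axis) for each tested gene of the 9 (top row) and of 6 osteoclast lists, in hematopoietic (left) and mesenchymal (right) libraries, red or blue where higher or lower with an adjusted p under 0.05 and open otherwise, with the list median as a line (not drawn for the 3 tested genes at top right). In hematopoietic cells the 9 lie from 2.33 to 4.11, to the right of most genes of the other lists, whose medians are between 0.06 and 0.79.

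Markers of other cells were measured beside these changes. Of 13 macrophage markers tested in hematopoietic libraries, 6 fell and 1 rose, again beside 6.89% and 9.01% of all genes. Mrc1, the mannose receptor, fell by 1.47 on the log2 scale and Ccr2, a receptor of monocytes, by 1.62, while Lyz2 rose by 0.66. None of 16 stromal markers and none of 9 neutrophil markers passed (edgeR), with 2 of 14 pan-leukocyte genes up and 4 down. The pan-leukocyte sum was 4733 to 5618 CPM in wild type and 4335 to 5114 in knock-in libraries. The neutrophil sum, relevant because neutrophils also make MMP-9, ranged from 40.9 to 155 CPM in wild type and from 48.0 to 106 in knock-in libraries, with Ly6g at 0 in the knock-in. Markers of erythroid cells, which also make carbonic anhydrase II, summed to 1.04 to 3.56 CPM in wild type and 1.72 to 3.84 in knock-in libraries. The globin genes Hba-a1, Hba-a2, Hbb-bs and Hbb-bt and Car1 added nothing to that sum, being listed at 0 in all 24 libraries. Itgam is listed at 0 beside a high macrophage sum, so a 0 in these files may not mean that a gene was silent. Of 10 osteoblast markers tested 3 fell and none rose, and their sum was 1122 to 6658 CPM in wild type and 1357 to 6023 in knock-in libraries, with Bglap at 0. What part of each change came with the share of cells of a type was not tested.

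In mesenchymal cells the same genes were scarce apart from Ctsk. Acp5, Ctsk and Mmp9 passed the filter on low counts. Acp5 and Mmp9 did so only through the knock-in group, so their direction was in part fixed by the filter. Both rose, where 3.44% of the 13867 genes tested rose. Both also had every knock-in library above every wild type one, as did 2.06% of genes tested. Mmp9 ranged from 0.23 to 1.11 CPM (median 0.66) in wild type and from 8.09 to 28.4 CPM (median 18.1) in knock-in libraries. Its log2 fold change of 4.88 ± 0.45 (SE; adjusted p = 0.000135, edgeR) was the largest rise of any gene tested. Nothing is read from this rank, nor from that of Acp5 below, since the filter in part fixed their direction. Acp5 ranged from 0.36 to 2.37 CPM (median 0.65) in wild type and from 2.70 to 21.8 CPM (median 11.1) in the knock-in, and its log2 fold change of 3.60 ± 0.63 (adjusted p = 0.00641) was the third largest rise.

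The knock-in mesenchymal libraries fell into a high and a low trio for both genes. Replicates 3, 4 and 5 held 28.1, 28.4 and 24.2 CPM of Mmp9, and replicates 1, 2 and 6 held 9.46, 12.1 and 8.09. The same 3 libraries were higher in pan-leukocyte markers, with sums of 67.7, 60.4 and 53.5 CPM against 36.6, 38.3 and 29.8, and in macrophage markers (121 to 146 against 35.8 to 67.5 CPM). In both genes each of the 6 knock-in libraries lay above every wild type library. The wild type leukocyte sums were 32.0 to 47.7 CPM. The part of these markers in the rise was not tested. Fitted without replicates 3, 4 and 5, the log2 fold change of Mmp9 was 4.06 ± 0.37 (adjusted p = 0.000563, edgeR) and that of Acp5 2.07 ± 0.51 (adjusted p = 0.0318).

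**Figure D5:**
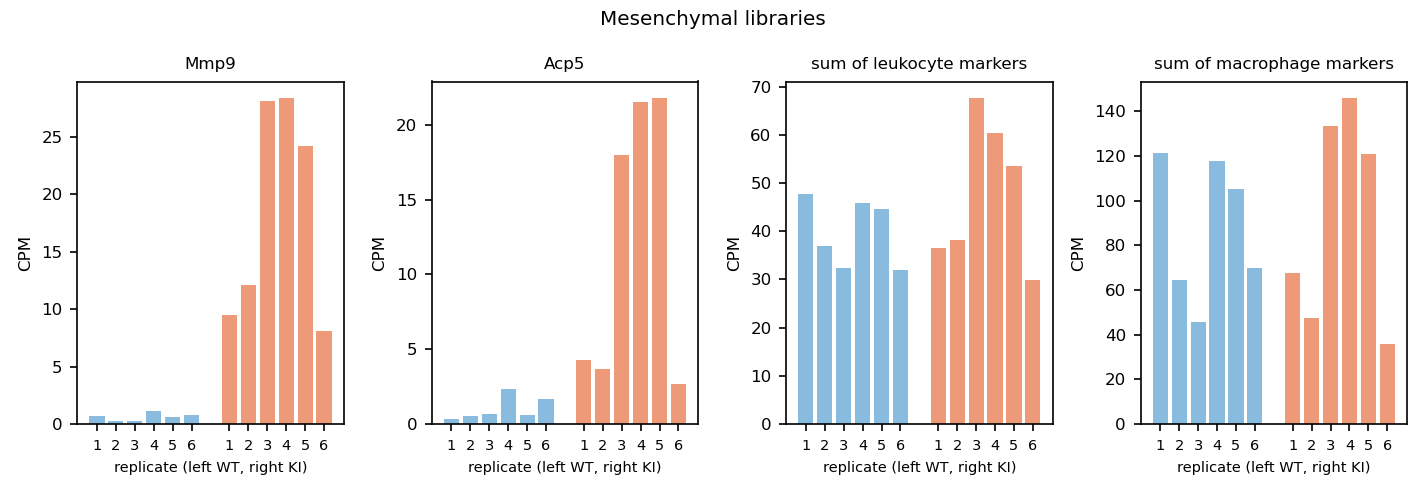
Level of Mmp9 and Acp5 and the summed level of 14 leukocyte and 14 macrophage marker genes, all in CPM on the vertical axes, in each mesenchymal library by replicate, wild type in blue on the left of each panel and knock-in in orange on the right. Every knock-in bar of Mmp9 and Acp5 is above every wild type bar, and knock-in replicates 3, 4 and 5 are the highest knock-in libraries in all 4 panels.

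Ctsk did not share this rise. It ranged from 40.6 to 74.7 CPM (median 67.8) in wild type and from 46.0 to 138 (median 78.1) in knock-in mesenchymal libraries, with overlap, a log2 fold change of 0.45 ± 0.28 and an adjusted p of 0.385 (edgeR). Replicates 3, 4 and 5 of the knock-in, at 105, 138 and 129 CPM, were its high libraries. Without them the sign turned, to -0.32 ± 0.17 (adjusted p = 0.277).

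The other 6 genes had few counts in mesenchymal libraries and were below the filter. Dcstamp had 4 counts over the 6 wild type libraries and 42 over the knock-in ones, and Ocstamp had 4 and 33. Oscar had 6 and 34, and Calcr 5 and 21, with knock-in replicates 1 and 6 at 0 for both. Thus 4 receptor and fusion genes were seen mostly in knock-in libraries, at levels where single counts matter. Knock-in replicates 3, 4 and 5, higher in leukocyte markers, held 8, 23 and 2 counts of Dcstamp and 14, 6 and 10 of Ocstamp. They held 8, 10 and 11 counts of Oscar and 6, 6 and 4 of Calcr. Knock-in replicates 1, 2 and 6 held at most 5 counts of any of these 4 genes. Car2 had 16 counts in wild type and 69 in the knock-in, while Mst1r had 45 and 56. When the filter was dropped, Car2 (log2 fold change 2.14, adjusted p = 0.0155, edgeR) and Dcstamp (3.20, adjusted p = 0.0243) also passed, and the adjusted p of Ocstamp, Oscar, Calcr and Mst1r was 0.14 or more. For comparison, Ocstamp had 333 and 2957 counts in the hematopoietic groups, so only large differences were detectable in mesenchymal cells at this depth.

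Of the wider lists, few genes changed in mesenchymal cells. Atp6v0d2 rose by 3.92 ± 0.67 (log2, SE; adjusted p = 0.00528, edgeR), from 0.47 to 7.27 CPM, and Slc9b2 by 3.29 ± 0.64 (adjusted p = 0.00856), from 0.32 to 3.004 CPM. Prdm1 rose by 2.82 ± 0.29 (adjusted p = 0.000135), from 0.65 to 4.52 CPM, and these 3, like Acp5 and Mmp9, were far higher in hematopoietic cells. All 3 passed the filter only through the knock-in group, with 1, 1 and 2 of 6 wild type libraries at its level. They were the 3 genes of the lists to rise by more than 1 log2 unit. Osteoblast markers moved with genotype here too, with 6 of 10 tested lower in the knock-in and none higher, and sums of 11680 to 26040 CPM in wild type and 14170 to 26950 in the knock-in. In all, 2 of 14 fusion and contact genes rose and 2 fell (median 0.02), with Cd44 up by 0.73, Cd9 down by 0.64 and Cd200 down by 1.02, the last in the direction opposite to hematopoietic cells. Of 15 acid secretion genes 1 rose (median 0.15). Matrix degradation had 1 rise among 9 (Ctsb, by 0.42, median 0.11). The transcription factors had 1 rise and 1 fall (Tfeb, by 0.64) among 13, with a median near 0, the receptors and adaptors 3 rises (Src by 0.43, Traf6 by 0.37, Il1r1 by 0.40) and 1 fall (Vav3, by 0.89) among 15 (median 0.14), and none of 5 repressors passed (median 0.03). For comparison, 3.83% of all genes tested fell, and the median of all genes was 0.0011.

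Between populations, all 9 genes were lower in mesenchymal than in hematopoietic cells, in wild type (38% of 15389 genes tested were lower) and in the knock-in (39.1%). Car2, Calcr, Ocstamp, Dcstamp, Oscar and Mst1r entered this fit only through the hematopoietic libraries, where they are high, so their direction was in part fixed by the filter and nothing is read from the counts. The wild type difference was largest for Mmp9, -7.59 ± 0.75 on the log2 scale (adjusted p = 3.7e-09, edgeR), and Acp5, -6.79 ± 0.85. Dcstamp and Ocstamp were lower by 6.26 ± 0.77 and 6.24 ± 0.97. It was smallest for Car2, -1.55 ± 0.66 (adjusted p = 0.0376), Mst1r, -1.91 ± 0.59 (adjusted p = 0.00564), and Ctsk, -2.28 ± 0.69 (adjusted p = 0.00501). In wild type, 4 of the 9 (Acp5, Mmp9, Ocstamp and Dcstamp) did not overlap between populations, and in the knock-in all 9 were apart. The shares over all genes tested were 27.9% and 27.5%. Nothing is read from these counts either, for the same reason. The wild type call of Car2 was lost in 7 of 24 fits that left out 1 library (wild type hematopoietic replicates 3, 4 and 5 and wild type mesenchymal replicates 1, 2, 4 and 5), with adjusted p up to 0.114, and that of Mst1r without wild type hematopoietic replicate 5 (adjusted p = 0.0713).

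Expressed as a share, mesenchymal libraries held 0.92% of the hematopoietic Acp5 level in wild type and 1.55% in the knock-in. For Mmp9 the shares were 0.51% and 2.03%. The summed pan-leukocyte markers stood at 0.76% and 1.00%, in the same low range, and the macrophage markers at 0.49% and 0.45%. Those sums differed 1.196-fold and 1.05-fold between knock-in and wild type mesenchymal means, where Mmp9 differed 29.5-fold and Acp5 11.6-fold. Between the hematopoietic means of the 2 genotypes, Mmp9 differed 7.40-fold and Acp5 6.86-fold, so cells carried over would differ in these genes too. Ctsk was at 20.6% and 5.71%, Car2 at 33.0% and 8.78%, and Mst1r at 26.4% and 3.49%, each smaller in the knock-in. The share was also smaller there for Calcr (2.455% and 1.77%), Oscar (4.193% and 3.961%) and Ocstamp (1.094% and 1.074%). For Dcstamp it was larger (1.125% and 1.745%). Calcr, Oscar, Ocstamp and Dcstamp rest on few mesenchymal counts. How much of the mesenchymal signal came from sorted hematopoietic cells was not tested.

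Whether the knock-in changed a gene differently in the 2 populations was tested directly. The interaction passed for Mst1r alone, -2.91 ± 0.83 on the log2 scale (adjusted p = 0.0325, edgeR), where 7.28% of genes tested passed. Mst1r rose in hematopoietic cells and held 0.53 and 0.68 CPM in wild type and knock-in mesenchymal cells, with 4 to 12 counts per mesenchymal library. It entered this fit only through the hematopoietic libraries, so the filter may in part have fixed the direction of this call. That call was lost without knock-in hematopoietic replicate 4, wild type mesenchymal replicates 2, 3 or 6, or knock-in mesenchymal replicates 1 or 2, and in either file-name set by itself. For Mmp9 the interaction was 1.99 ± 0.92 (adjusted p = 0.232), for Ctsk -1.88 ± 0.94 (adjusted p = 0.279), for Car2 -1.95 ± 0.87 (adjusted p = 0.209) and for Acp5 0.74 ± 1.03 (adjusted p = 0.776). The SEs of these 4 estimates are about 1 log2 unit, so the tests leave a wide range for each difference. Dcstamp (0.47), Calcr (-0.56), Ocstamp (-0.25) and Oscar (-0.23) had adjusted p of 0.857 or more.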

How the data were processed

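The 24 libraries were grouped by the labels' titles. Per the labels' protocols, total RNA was depleted of ribosomal RNA and made into stranded paired-end libraries. The deposited files hold raw counts per gene. Per the submitters' processing notes, the build was GRCm38 (mm10) and the tools were HTSeq 0.9.1, DESeq2 1.20.0, FastQC 0.11.7 and MultiQC. Neither aligner nor strand setting is given in the sources used here. Of 54232 identifiers, 54165 matched GENCODE M21, which gave symbols, coordinates and exon lengths.

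Genes were filtered with edgeR 4.0.16 (filterByExpr with at least 10 counts and a total of at least 15). The robust quasi-likelihood test with TMM factors was run in R 4.3.3, with the file-name set as a term and a Benjamini-Hochberg threshold of 0.05. Genotype comparisons used the 12 libraries of a population, and the others all 24 as independent libraries. File names carry culture names that may link hematopoietic and mesenchymal libraries of the same culture. No label states such a link, so no pairing was used, and the SEs and p-values between populations do not allow for it. SEs are the log2 fold change over the root of the test's F. The fits were tested on simulated data. No pair of replicates was within counting noise (chi-square per degree of freedom 7.23 to 65.0). Same-numbered libraries of the 2 genotypes were not treated as pairs.

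The 9 genes, the lists and the motifs were chosen with earlier results of these data known. From each list up to 4 called genes were named by adjusted p, with the 6 genes nearest in profile, and 1 gene so named is not reported here. DESeq2 1.42.0, RLE size factors, no filter, no set term, 1 fit of all libraries, a replicate block, each set alone and leaving out each library were tried, and 2 fits without libraries high in another population's markers were added after seeing the data.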

Additional observations from a re-analysis of the deposited data

Results flagged for a closer look

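Each of the 9 genes was checked for a library far from the others in each group of 6, by the gap to its nearest neighbour over the group's range, against Dixon's critical value. Of 36 such checks 5 exceeded it. The chance rate of about 1 in 20 assumes normal values and independent checks. CPM of genes that move together need not meet this, so no excess over chance is read. In knock-in hematopoietic replicate 6, Mmp9 stood at 1666 CPM (the others at 611 to 939), Calcr at 40.5 CPM (6.22 to 14.8) and Dcstamp at 55.1 CPM (18.6 to 26.05), with gap ratios of 0.689, 0.749 and 0.796. In wild type mesenchymal replicate 4, Ocstamp stood at 0.28 CPM where the other 5 libraries were at 0, and Dcstamp at 0.21 CPM (others 0 to 0.078). Those 2 values are 4 and 3 counts, so counting error is large. The knock-in effect on Mst1r differed between populations by -2.91 on the log2 scale (adjusted p = 0.0325, edgeR). Mst1r entered that fit only through the hematopoietic libraries and had few mesenchymal counts.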

How the results depend on the processing

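Of 1089 values of the 9 genes under an alternative, 1017 kept their direction and side of the threshold, 54 no longer passed, 4 newly passed and 14 reversed. The hematopoietic count of genes called, 2231, was 672 in the first file-name set alone and 218 in the second (1745 to 2206 without 1 library). Of the 9 genes 8 were called, against 5 with no filter, 4 and 0 in the sets, 5 without replicate 3 of both genotypes and 6 to 9 without 1 library. Ctsk passed by DESeq2 (adjusted p = 0.0462) and in 1 fit of all 24 libraries (0.022, edgeR). No filter left Acp5 (adjusted p = 0.086), Calcr (0.129) and Oscar (0.0998) above the threshold. The mesenchymal count, 1008, was 1664 by DESeq2, 391 and 76 in the sets and 646 to 1036 without 1 library (646 without knock-in replicate 1). Of the 9 genes 2 were called there, 4 with no filter, 1 in the second set and 2 whichever library was left out. The interaction count, 1121, was 180 and 138 in the sets (937 to 1166 without 1 library), and the 1 call among the 9 became 0 with no filter and in each set (0 to 1 without 1 library). The wild type population difference called 7 to 9 of the 9 without 1 library and 8 and 6 in the sets, and the knock-in one called 9 in each of these fits. Interactions that reversed were Acp5 with the replicate block (-0.046), Calcr in the first set (0.035), Ocstamp by DESeq2 (0.081) and in the first set (2.70), and Oscar in the second (0.15). None had passed. Without 1 library the interaction ranged from -0.90 to 2.34 for Ocstamp, -0.25 to 1.68 for Dcstamp and -1.07 to 0.12 for Oscar. Mesenchymal Ctsk reversed to -0.32 without knock-in replicates 3 to 5. The cause of these changes was not tested. Each set alone also holds fewer libraries, and the part of that in the changes was not tested either.

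Same-numbered hematopoietic libraries of the 2 genotypes had deviations from their group means that correlated at 0.09 to 0.527 (mesenchymal -0.0464 to 0.417), not all above 0.1. After removal of the set means as well, they were 0.101 to 0.477 (mesenchymal 0.0258 to 0.427). Not every library correlated best with its own number, and the labels give the numbers no meaning. With a replicate block 3315 hematopoietic genes were called and 8 of the 9, with Ctsk gained (3.29, adjusted p = 0.0379, edgeR) and Calcr lost (adjusted p = 0.112). The block gave 1258 mesenchymal genes and 2 of the 9. Depth limits the 6 genes with few mesenchymal counts.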

Other observations

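The ratio of Ctsk to Acp5, in CPM per kb, was low in replicates 1 and 6 of both genotypes, a pattern noticed after the values were seen. In wild type hematopoietic libraries it was 2.17 and 1.21 in replicates 1 and 6 and 3.21 to 3.99 in the others. In the knock-in, where both genes were at 408 CPM or more, it was 1.23 and 1.15 in replicates 1 and 6 and 3.11 to 3.48 in the others. The labels give nothing that sets these 4 libraries apart.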
